A study of Mus musculus with 6 samples.

Results

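The genes described here encode 10 C-type lectin receptors of mouse macrophages: Clec4n, Clec7a, Clec4d, Clec4e, Clec4a1, Clec4a2, Clec4a3, Clec12a, Clec10a and Mrc1. They were picked by gene symbol out of the 55421 genes of the count table, each symbol matched 1 gene, and all 10 passed the filter on low counts. RNA was sequenced from primary wild-type macrophages differentiated from bone marrow, in 3 untreated wells and in 3 wells held for 24 h in 50% medium conditioned by LL-2, a Lewis lung carcinoma cell line. Untreated wells had RPMI-1640 containing 10% FBS, antibiotics and M-CSF (macrophage colony-stimulating factor) at 20 ng/mL, and the other wells had the same medium mixed with an equal volume of conditioned medium. No strain, sex or age of mouse was available to this description, and the labels do not tie wells to animals, so p-values reflect the spread between wells, which may be technical. Medium conditioned by other cells was not analysed here, so tumour-cell products and conditioning as such cannot be told apart. The labels give the 20 ng/mL of M-CSF for the fresh medium of both groups and state no concentration after mixing.

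C-type lectin receptors bind sugars, lipids or other ligands on microbes and on dead or altered host cells. Dectin-1, encoded by Clec7a, binds fungal beta-glucan and signals through a tyrosine motif in its own tail. Dectin-2 (Clec4n), MCL (Clec4d) and Mincle (Clec4e) signal through the adaptor Fc receptor gamma (Fcer1g), which carries an immunoreceptor tyrosine-based activation motif (ITAM). Both routes engage the kinase Syk and then CARD9 with Bcl10 and Malt1, which activate NF-kB. DCIR (Clec4a2) and MICL (Clec12a) instead carry an inhibitory motif (ITIM) that recruits phosphatases such as SHP-1, encoded by Ptpn6. Clec10a and Mrc1 encode the endocytic receptors MGL1 and CD206, used as markers of alternatively activated macrophages.

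The start regions of 3 genes are printed first to show the sequence beside genes whose RNA moved differently: Clec4d and Clec4e are adjacent and moved in opposite directions, and Clec7a fell most of the 10 genes. Each line gives the 250 bases upstream of an annotated transcription start, on the strand of the gene, from RefSeq's annotation of GRCm38.p6. Windows were matched for 8 of the 10 genes, all but Clec4n and Clec10a. Capitals mark matches, on either strand, to motifs of a C/EBP site (TTGCNNAA), a PU.1 site and a TATA box. For PU.1, the macrophage lineage factor encoded by Spi1, the letters GAGGAA were searched. The TATA box was searched as TATAAA. The Clec4d window is chr6:123261857-123262106 (plus strand), the Clec4e window chr6:123289872-123290121 (minus strand) and the Clec7a window chr6:129472780-129473029 (minus strand).
Clec4d: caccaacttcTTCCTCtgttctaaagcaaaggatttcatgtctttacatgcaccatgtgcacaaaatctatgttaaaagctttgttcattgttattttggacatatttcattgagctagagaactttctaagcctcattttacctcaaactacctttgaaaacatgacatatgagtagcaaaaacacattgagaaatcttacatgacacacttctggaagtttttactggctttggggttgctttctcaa
Clec4e: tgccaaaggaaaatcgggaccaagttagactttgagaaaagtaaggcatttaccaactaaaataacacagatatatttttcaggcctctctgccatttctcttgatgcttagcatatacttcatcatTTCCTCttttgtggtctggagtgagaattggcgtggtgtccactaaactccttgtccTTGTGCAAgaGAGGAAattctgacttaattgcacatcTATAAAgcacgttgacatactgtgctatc
Clec7a: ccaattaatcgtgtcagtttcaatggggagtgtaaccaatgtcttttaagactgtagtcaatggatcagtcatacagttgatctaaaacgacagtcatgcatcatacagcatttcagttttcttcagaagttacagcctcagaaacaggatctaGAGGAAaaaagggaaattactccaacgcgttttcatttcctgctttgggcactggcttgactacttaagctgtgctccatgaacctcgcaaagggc

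The Clec4d window held 1 PU.1 match, which began 240 bases before the start and lay on the opposite strand. Clec4e held PU.1 matches at 123 bases, on the opposite strand, and at 56 bases, a C/EBP match at 66 bases on the opposite strand and a TATA box at 29 bases. In the Clec7a window 1 PU.1 match began 96 bases before the start. The window of another annotated start of Clec7a, from 129472786, held the same match at 90 bases. Of 32851 RefSeq windows of this length, 23.3% held a PU.1 match, 9.56% a C/EBP match and 12.4% a TATA box. These are matches of letters, and they were not tested against the expression data.

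Library totals ran from 24179548 to 30040682 counts, with the 3 conditioned-medium libraries the deepest. In a principal component analysis of log2 expression, component 1 (51.9% of the variance) split the groups, and component 2 (18.2%) split the wells numbered 3 from the rest. All 8 listed macrophage markers passed the filter, with a summed level of 51040 to 60325 CPM untreated and 57256 to 61926 CPM exposed. Of these 3 rose and 3 fell, 75.0% called against 27.9% of all tested genes. Itgam and Csf1r were among those that rose, and Cd68, Fcgr1 and Adgre1 were those that fell. With the replicate number as a block 4 rose, and 2 rose without conditioned-medium replicate 1. Without untreated replicate 3, or without both wells numbered 3, 5 rose. In each of these settings 3 fell. Of 4 listed epithelial markers, Epcam, Krt8 and Krt18 had at most 3 counts in any library. The other, Cdh1, passed the filter and neither rose nor fell. The 4 summed to 0.794 to 1.20 CPM untreated and 0.585 to 1.12 CPM exposed. CPM are counts relative to a library's total, scaled by the trimmed mean of M-values (TMM). A log2 fold change is conditioned medium minus untreated, SE is its standard error, and a gene is said to have risen or fallen when its adjusted p in edgeR's quasi-likelihood test over 13853 genes was under 0.05.

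Of the lectin receptor genes, 7 rose and 3 fell. Clec4n rose most, 4.61-fold, while Clec10a, Clec4d, Clec4a2, Mrc1, Clec4a3 and Clec4a1 rose between 1.74-fold and 1.25-fold. Clec7a was 2.65-fold lower, Clec12a 2.28-fold lower and Clec4e 1.66-fold lower. All 10 were thus called, against 27.9% of all tested genes, with 12.6% higher and 15.2% lower. The 10 genes were chosen with earlier results of these data known, so these shares describe them and do not test the family. Higher genes made up 45.3% of all calls, and 60.8% without scaling beyond the total count, where the 10 genes were called in the same directions. With the replicate number as a block all 10 were called in the same directions, against 36.3% of all tested genes (17.0% higher and 19.3% lower). The groups did not overlap for any of the 10 genes, and 42.8% of all tested genes had no overlap. The median log2 fold change was 0.48 over the 10 genes and 0.01 over all tested genes. By mean level the 10 genes lay between the 94.2nd and the 98.8th percentile of tested genes. The shares above cover genes of all levels, and a share among genes of like level was not computed.

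**Figure D1:**
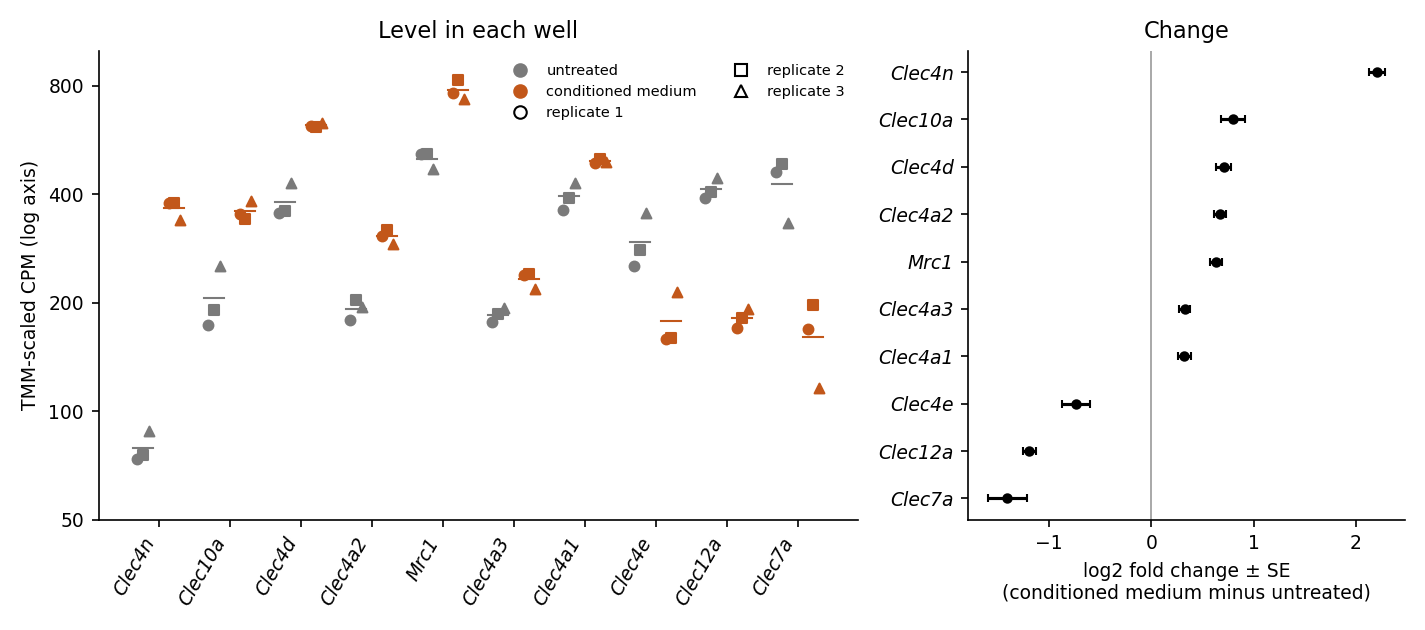
TMM-scaled CPM of the 10 lectin receptor genes in each of the 6 wells on a log axis (left; points are wells, shapes are replicate numbers, lines are group means), and the log2 fold change with its SE (right). The groups separate for each gene, Clec4n changes most, and in both groups the well numbered 3 is the lowest for Clec7a and the highest for Clec4e.

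Clec4n encodes Dectin-2, which binds fungal mannans (ENSMUSG00000023349, chromosome 6, 123229843 to 123247021, GRCm38). Its level was 73.6, 75.8 and 88.4 CPM in untreated wells 1, 2 and 3, and 378, 379 and 340.1 CPM in the conditioned-medium wells of the same numbers. The lowest exposed well was far above the highest untreated well. The mean went from 79.2 ± 8.02 to 366 ± 22.1 CPM (SD, n = 3 per group), a log2 difference of 2.21 with SE 0.08 (adjusted p = 2.85e-07 by edgeR). Between wells of the same number it was 3.85-fold to 5.13-fold higher, least in the wells numbered 3. Among called rises in all genes, Clec4n ranked 24 by size.

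Clec4d encodes MCL, which pairs with Mincle and helps to bring it to the cell surface (ENSMUSG00000030144, chromosome 6, 123262111 to 123275265). Untreated wells 1 to 3 held 355, 358 and 429 CPM, and the exposed wells 620.0, 616 and 629 CPM. The exposed wells were nearly alike, while untreated well 3 stood above the other untreated wells. The rise was 1.63-fold (log2 0.71, SE 0.07, adjusted p = 9.91e-05 by edgeR).

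Clec4e encodes Mincle, a receptor for mycobacterial glycolipid and for the ribonucleoprotein SAP130 of dying cells (ENSMUSG00000030142, chromosome 6, 123281789 to 123289870). Untreated wells 1 to 3 held 252, 280.0 and 354 CPM. The exposed wells held 159, 160.0 and 214 CPM, each below the lowest untreated well. Well 3 was the highest in both groups. The log2 fold change was -0.73 (SE 0.14, adjusted p = 0.00397 by edgeR), and wells of the same number had ratios of 0.630, 0.571 and 0.604. Clec4d and Clec4e, whose genes end 6.52 kb apart on opposite strands, thus moved in opposite directions.

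Clec4n was also compared with these neighbours within each library, as CPM per kb of exon, a scale that sets genes of different length side by side. Clec4n over the sum of Clec4d and Clec4e was 0.190, 0.190 and 0.183 in the untreated wells and 0.634, 0.639 and 0.549 in the exposed wells. The ratio was 3.23-fold higher in conditioned medium (exact permutation test, two-sided, p = 0.10, n = 3 per group). That p is the smallest that 3 wells against 3 can give, so the test cannot pass 0.05.

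Clec7a encodes Dectin-1 (ENSMUSG00000079293, chromosome 6, 129461591 to 129472779). Untreated wells 1 to 3 held 462, 484 and 334 CPM and the exposed wells 169.6, 197 and 116 CPM. Well 3 was the lowest in both groups, and every exposed well was below every untreated well. The log2 fold change was -1.41 (SE 0.19, adjusted p = 0.000555 by edgeR). Between wells of the same number the ratio was 0.367, 0.407 and 0.349, closer together than the levels themselves. Without both wells numbered 3 the log2 fold change was -1.37 for Clec7a, -0.74 for Clec4e and 2.34 for Clec4n.

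Clec12a encodes MICL, an inhibitory receptor that binds uric acid crystals (ENSMUSG00000053063, chromosome 6, 129342691 to 129365303). It held 391, 407 and 445 CPM in untreated wells 1 to 3 and 170.4, 181 and 192 CPM in the exposed wells. The spread within each group was small against the gap between them. The log2 fold change was -1.19 (SE 0.06, adjusted p = 2.27e-06 by edgeR), with ratios of 0.436, 0.446 and 0.432 between wells of the same number.

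Clec4a2 encodes DCIR, the other ITIM-bearing receptor of the set (ENSMUSG00000030148, chromosome 6, 123106428 to 123143999), and it moved in the opposite direction to Clec12a. Untreated wells 1 to 3 held 179, 204 and 195 CPM and exposed wells 307, 319 and 292 CPM. This was a 1.59-fold rise (log2 0.67, SE 0.06, adjusted p = 3.98e-05 by edgeR), and the groups were well apart.

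The related Clec4a1 (chromosome 6, 122921848 to 122934619) and Clec4a3 (chromosome 6, 122952515 to 122969875) encode members of the DCIR family whose tails lack that motif. Clec4a1 held 361, 392 and 430.3 CPM untreated and 489, 499.8 and 493 CPM exposed. Clec4a3 held 177, 186 and 194 CPM untreated and 239, 240.0 and 219 CPM exposed. In both genes each exposed well was above every untreated well. Their rises were the smallest of the 7, with log2 values of 0.32 for Clec4a1 (SE 0.06, adjusted p = 0.00381 by edgeR) and 0.33 for Clec4a3 (SE 0.05, adjusted p = 0.00168).

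Clec10a encodes MGL1, which binds galactose and N-acetylgalactosamine (ENSMUSG00000000318, chromosome 11, 70156197 to 70170834). It held 174, 191 and 253 CPM in untreated wells 1 to 3 and 353, 341 and 383 CPM in the exposed wells. Untreated well 3 stood above the other untreated wells, and the groups did not overlap. The log2 fold change was 0.80 (SE 0.12, adjusted p = 0.00103 by edgeR). Mgl2, a close paralog that shares transcript sequence with Clec10a, also rose. Its mean was 27.6 ± 4.83 CPM untreated and 52.1 ± 4.21 CPM exposed (SD, n = 3 per group), a 1.89-fold difference (adjusted p = 0.000330 by edgeR).

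Mrc1 encodes the mannose receptor, which takes up mannosylated glycoproteins (ENSMUSG00000026712, chromosome 2, 14229392 to 14332057). Untreated wells 1 to 3 held 516, 518 and 471 CPM and exposed wells 765, 827 and 737 CPM. The gap between the groups was larger than the spread in either. The rise was 1.55-fold (log2 0.63, SE 0.06, adjusted p = 6.08e-05 by edgeR).

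Related genes can share reads. Of the 50-base stretches in the annotated transcripts of Clec10a, 270 of 3181 also occurred in Mgl2, and of those of Clec4a2, 182 of 2959 also occurred in Clec4a4 or Clec4b1. The counts of Clec10a and Clec4a2 are uncertain to that extent. Clec4a4 and Clec4b1 were scarce, at 1.58 ± 0.231 and 7.25 ± 1.08 CPM untreated (SD, n = 3). Mgl2 was scarcer than Clec10a, so the counts of Mgl2, Clec4a4 and Clec4b1 are uncertain too. The extent was not computed for them. Clec4n shared 11 of 1603 such stretches and Clec12a 22 of 5476 with genes that are not lectin genes, and the remaining 6 genes shared 0 with any gene. None of the 10 genes had an exon overlapped by another annotated gene.

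Per length, the order of the levels changed between the groups. In untreated wells the highest were Clec4a1 (253 ± 22.2 CPM per kb), Clec4d (238 ± 26.3), Clec7a (162 ± 30.7) and Clec4a3 (139.7 ± 6.38; SD, n = 3). Mrc1, Clec12a, Clec10a, Clec4a2, Clec4e and Clec4n followed between 78.8 and 55.8 CPM per kb. Wells of neighbours in that order overlapped, except between Clec4d and Clec7a and between Clec4a3 and Mrc1.

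In conditioned medium Clec4d led with 389 ± 4.08 CPM per kb, followed by Clec4a1 (317 ± 3.61), Clec4n (257 ± 15.6) and Clec4a3 (175 ± 9.05; SD, n = 3). Clec10a, Mrc1, Clec4a2, Clec7a, Clec4e and Clec12a came next, from 124 down to 32.8 CPM per kb. Here neighbours did not overlap, except Clec10a with Mrc1 and Clec4e with Clec12a. Clec4n thus went from place 10 to place 3, Clec7a from 3 to 8 and Clec12a from 6 to 10. The length is that of all annotated exons, so genes with rarely used exons are understated on this scale.

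The sum over the 10 genes was 1138, 1199 and 1259 CPM per kb in untreated wells 1 to 3 and 1621, 1650 and 1584 CPM per kb in the exposed wells. It was 1.35-fold higher in conditioned medium (exact permutation test, two-sided, p = 0.10, the smallest that 3 against 3 allow). The log2 difference of the sum was 0.43 per kb and 0.26 with CPM not divided by length, so its size depends on that scale. Of the sum per kb Clec4n made up 4.65% ± 0.261 untreated and 15.9% ± 0.683 exposed (SD, n = 3 per group). Clec7a went from 13.6% ± 3.06 to 3.76% ± 0.888, and Clec12a from 6.25% ± 0.128 to 2.03% ± 0.151. Clec4e made up 4.94% ± 0.632 untreated and 2.21% ± 0.437 exposed.

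The activating receptor genes Clec4n, Clec4d, Clec4e and Clec7a were also summed and divided by the sum of the ITIM-bearing Clec4a2 and Clec12a. The ratio was 3.79, 3.61 and 3.59 in untreated wells and 5.53, 5.35 and 5.35 in exposed wells, 1.48-fold higher in conditioned medium (exact permutation p = 0.10). Every exposed well was above every untreated well, although both sums held genes that rose and genes that fell. These are levels of RNA in bulk wells, in which fewer cells of a type and less RNA per cell cannot be told apart.

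**Figure D2:**
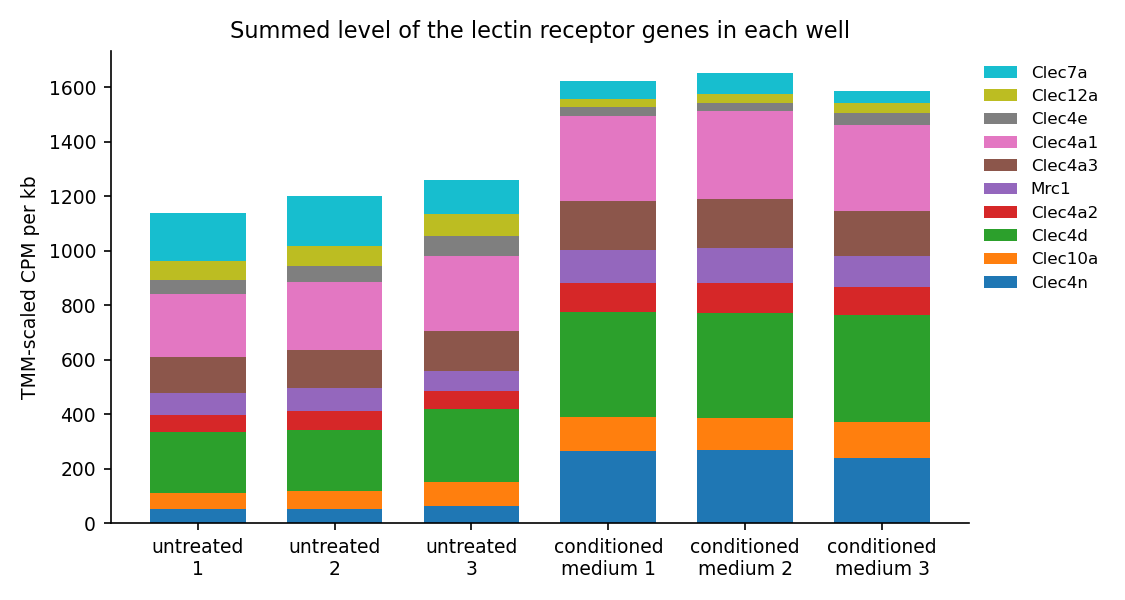
Stacked bars of TMM-scaled CPM per kb of the 10 lectin receptor genes in each of the 6 wells, 1 colour per gene. The sums run from 1138 to 1259 in untreated wells and from 1584 to 1650 in conditioned medium, where the band of Clec4n is wider and those of Clec7a and Clec12a are narrower.

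The run that holds Clec4a1, Clec4a3, Clec4a2, Clec4n, Clec4d and Clec4e spans 368 kb (chromosome 6, 122921848 to 123289870), and that of Clec12a and Clec7a spans 130 kb (chromosome 6, 129342691 to 129472779). Of the 12 other annotated genes in these runs 6 were tested, 2 fell and 0 rose. That was 33.3% called, near the 27.9% of all tested genes. Clec4b1, which encodes a related receptor that signals through Fc receptor gamma, lies between Clec4a3 and Clec4a2 and shares transcript sequence with the latter. Its level was 7.25 ± 1.08 CPM untreated and 2.87 ± 0.441 CPM exposed (SD, n = 3 per group), 2.52-fold lower (adjusted p = 0.000364 by edgeR).

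Clec9a, a receptor for actin of dead cells that marks cross-presenting dendritic cells, lies between Clec12a and Clec7a. It was scarce and went from 1.26 ± 0.365 to 0.564 ± 0.140 CPM (log2 -1.15, adjusted p = 0.0278 by edgeR), and its exons overlap those of Clec1b on the same strand. Its call ended without untreated replicate 1 (adjusted p = 0.0791) or 2 (0.121) and without conditioned-medium replicate 1 (0.0525), 2 (0.0705) or 3 (0.0812). Clec4a4, Clec4b2, Clec1b and Clec1a had log2 fold changes of 0.46, 0.77, -0.32 and -0.96 and did not pass the test, though Clec1a did with the replicate block (adjusted p = 0.0454).

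**Figure D3:**
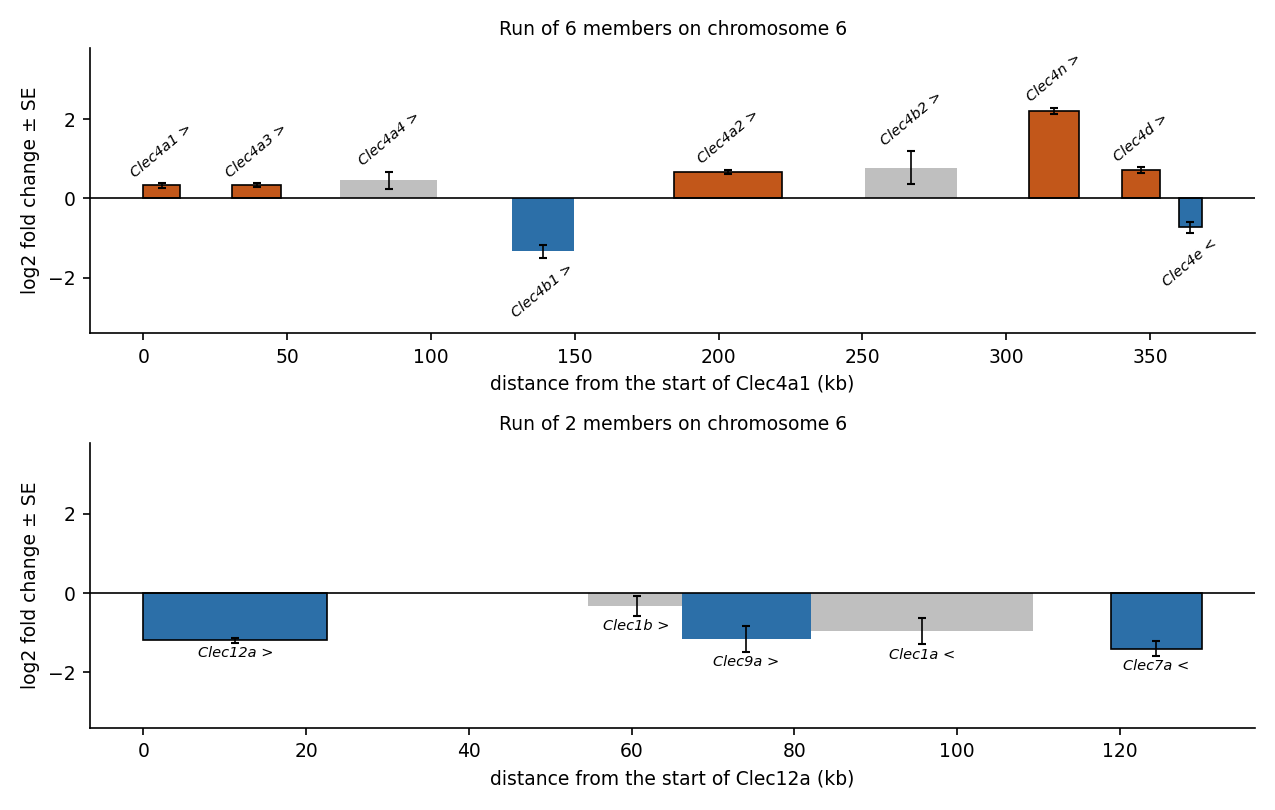
Log2 fold change (bars, with SE) of the tested genes in both runs on chromosome 6, drawn to scale along each run. Outlined bars are the 8 described receptor genes, orange and blue bars passed the test, grey bars did not, and > or < gives the strand. In the upper run Clec4b1 and Clec4e are the bars below 0, and in the lower run all 5 bars are below 0.

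Among 46 other genes of lectin type, 27 were tested, of which 1 rose and 6 fell, 25.9% called against 27.9% of all tested genes. With the replicate number as a block 5 rose and 12 fell, 63.0% called against 36.3%. Without scaling beyond the total count 4 rose and 6 fell (37.0% called against 31.5%), and without untreated replicate 3 it was 3 and 6 (32.1% against 25.4%). The median log2 fold change was -0.16. Mgl2, which shares transcript sequence with Clec10a, was the gene that rose. Ly75, encoding the endocytic receptor DEC-205, was 3.97-fold lower, at 56.2 ± 6.40 CPM untreated and 14.1 ± 2.12 CPM exposed (SD, n = 3 per group; adjusted p = 4.02e-06 by edgeR). Cd72, which encodes an inhibitory receptor known from B cells, was 3.50-fold lower, but its exons overlap those of Tesk1 on the opposite strand, so its count is uncertain. Klrk1, encoding the activating receptor NKG2D, and Cd69, an early activation marker, were scarce and fell with log2 fold changes of -2.06 (adjusted p = 0.00133) and -1.27 (adjusted p = 0.00235).

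The relay below the activating receptors moved in both directions. Of 18 listed genes from the adaptors to the CARD9 complex, all tested, 4 rose and 6 fell, with a median log2 fold change of -0.07. That was 55.6% called, against 27.9% of all tested genes. With the replicate block 5 rose and 9 fell, 77.8% called against 36.3%. Fcer1g, the adaptor of Dectin-2 and Mincle, fell from 1029 ± 43.5 to 839 ± 21.1 CPM (log2 -0.29, adjusted p = 0.00156 by edgeR). Tyrobp, which encodes the adaptor DAP12, also fell, with a log2 value of -0.16 (adjusted p = 0.0226). That call was lost without scaling beyond the total count (adjusted p = 0.0837), and without untreated replicate 1 (0.0641) or 2 (0.0839) or conditioned-medium replicate 1 (0.0841) or 3 (0.0504). Syk, the kinase shared by these receptors, held 690.1, 686 and 699.6 CPM untreated and 694, 689.8 and 673 CPM exposed, a log2 value of -0.01 with SE 0.04 (adjusted p = 0.845).

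Within the CARD9 complex, Card9 rose from 47.0 ± 3.66 to 58.7 ± 6.02 CPM (SD, n = 3 per group; log2 0.32, adjusted p = 0.0172 by edgeR). It no longer passed without untreated replicate 1 (adjusted p = 0.0685) or 2 (0.0611). Bcl10 rose from 88.4 ± 2.95 to 109 ± 3.20 CPM (log2 0.30, adjusted p = 0.00108). Malt1, the protease of the complex, fell from 56.8 ± 4.38 to 31.6 ± 1.73 CPM (log2 -0.84, adjusted p = 2.78e-05). Src and Fgr, encoding kinases that phosphorylate such motifs, fell with log2 values of -1.26 (adjusted p = 8.29e-05) and -0.44 (adjusted p = 9.36e-05).

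Of 8 genes for ITIM-recruited phosphatases and other brakes on these receptors, 1 rose and 4 fell, 62.5% called against 27.9% of all tested genes. Ptpn6, encoding the phosphatase SHP-1, fell from 536 ± 39.9 to 353 ± 14.9 CPM (SD, n = 3 per group; log2 -0.60, adjusted p = 0.000103 by edgeR). Ubash3b, encoding a phosphatase that acts on Syk, and Cblb, a ubiquitin ligase gene, fell with log2 values of -0.72 (adjusted p = 3.24e-05) and -0.61 (adjusted p = 2.67e-05). Inpp5d, encoding the lipid phosphatase SHIP-1, had a log2 value of 0.11 (adjusted p = 0.161), and passed without scaling beyond the total count (0.0209), without untreated replicate 3 (0.0288) and without both wells numbered 3 (0.00679). The calls of Inppl1 (-0.15) and Cbl (0.13) were small and were lost in 7 alternatives each. Without untreated replicate 1 or 2, or conditioned-medium replicate 1 or 2, 3 of the 8 genes were called (37.5%). In those settings 19.0% to 22.9% of all tested genes were called.

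Genes known to be induced through these receptors also divided. Of 19 listed, 15 were tested, 3 rose and 7 fell, with a median log2 fold change of -0.18. That was 66.7% called, against 27.9% of all tested genes. Il1b, the gene of an inflammatory cytokine, was 3.84-fold higher, at 4.68 ± 0.665 CPM untreated and 18.0 ± 2.40 CPM exposed (SD, n = 3 per group; adjusted p = 1.08e-05 by edgeR). Cxcl2, a neutrophil attractant gene, was 3.18-fold higher (adjusted p = 0.000566). Tnf fell from 29.2 ± 3.35 to 9.12 ± 1.85 CPM (adjusted p = 2.78e-05). Egr2, encoding a zinc finger factor, and Il12b, encoding the shared chain of interleukins 12 and 23, were scarce and fell with log2 values of -2.21 (adjusted p = 0.000893) and -1.50 (adjusted p = 0.00145).

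All 6 listed genes for transcription factors known to act on lectin receptor genes were tested, and 2 fell. That was 33.3% called, against 27.9% of all tested genes. Pparg, a nuclear receptor gene, fell from 37.8 ± 5.94 to 15.8 ± 3.56 CPM (SD, n = 3 per group; adjusted p = 0.000409 by edgeR), and Irf4 was 1.60-fold lower (adjusted p = 0.00387). Spi1, encoding PU.1, was at 463 ± 33.9 and 422 ± 22.8 CPM (adjusted p = 0.152, and 0.0168 with the replicate block). Cebpb, known to act on Clec4e, was at 106 ± 21.7 and 137 ± 18.4 CPM (adjusted p = 0.0751, and 0.00784 with the replicate block), and its exons overlap those of Tmem189 on the opposite strand. Cebpb also passed without scaling beyond the total count (adjusted p = 0.0456), without a filter (0.000441) and without untreated replicate 1 (0.0104). With the block 1 of the 6 rose and 3 fell, 66.7% called against 36.3% of all tested genes.

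**Figure D4:**
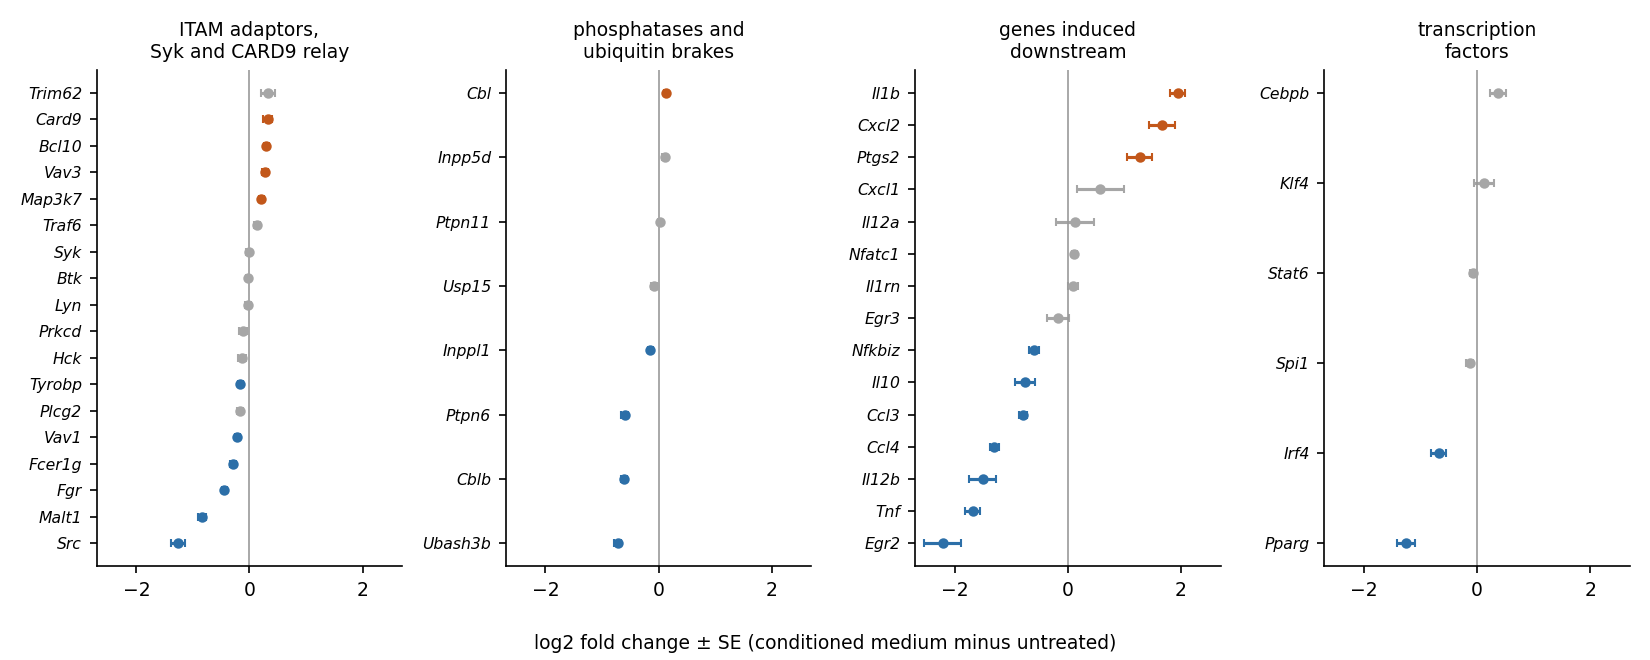
Log2 fold change (points, with SE) of the tested genes of 4 lists: adaptors, Syk and the CARD9 relay, phosphatases and ubiquitin brakes, genes induced downstream, and transcription factors. Orange points rose, blue points fell and grey points did not pass the test, and each of the first 3 panels holds both orange and blue points.

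Some markers of other cells that bear C-type lectins moved in the same wells. Of all tested genes 12.6% rose and 15.2% fell. Of 6 monocyte markers 5 rose and 0 fell, with a summed level of 212 to 245 CPM untreated and 1184 to 1257 CPM exposed. F13a1 held 65.6, 70.6 and 58.9 CPM of that in untreated wells 1 to 3 and 986, 977 and 981 CPM in the exposed wells. Of 8 dendritic cell markers 7 were tested and 3 fell, with a sum of 20.0 to 28.6 CPM untreated and 10.1 to 15.8 CPM exposed. Of 6 mast cell and basophil markers 5 were tested and 5 fell (sum 19.1 to 26.9 CPM untreated and 5.85 to 12.1 CPM exposed). Of 8 neutrophil markers 1 rose and 1 fell (sum 355 to 511 and 447 to 531 CPM), and of 4 B cell markers 1 fell (sum 13.2 to 16.1 and 10.2 to 15.7 CPM). T and NK cell markers summed to 0.561 to 1.11 CPM untreated and 0.688 to 0.984 CPM exposed. No marker was at 0 in all libraries. These counts moved with the libraries used. Without untreated replicate 1 or 2, or conditioned-medium replicate 1, 3 monocyte markers rose. The dendritic cell markers that fell numbered 1 without untreated replicate 1 or 2 or conditioned-medium replicate 2 or 3, and 2 without conditioned-medium replicate 1. They numbered 4 by DESeq2, without a filter, with the replicate block, without untreated replicate 3 and without both wells numbered 3. Of the mast cell and basophil markers 2 fell without untreated replicate 2, 3 without conditioned-medium replicate 1 and 6 without conditioned-medium replicate 3. The B cell call, of Ms4a1, was lost without untreated replicate 1 or 3, without conditioned-medium replicate 1 and without both wells numbered 3. For the neutrophil markers the replicate block gave 5 higher and 2 lower, and leaving out both wells numbered 3 gave 6 higher and 1 lower. Without a filter 4 of them were higher and 2 lower, without untreated replicate 3 they were 3 and 1, without conditioned-medium replicate 3 they were 4 and 1, and 3 were called by DESeq2, without scaling beyond the total count, or without untreated replicate 2. The part of these cells in the changes of the lectin receptor genes was not tested.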

How the data were processed

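RNA of the 6 wells was enriched on oligo(dT) beads and primed with random hexamers, per the labels' protocols. The authors deposited a table of whole-number read counts per gene. The submitters' processing notes name HISAT2, featureCounts and GRCm38. Their versions, the strand setting and the treatment of multi-mapped reads were not given in those notes as used here. Gene symbols came from GENCODE M21, to which 55240 of 55421 identifiers matched. No row lacked a gene.

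Genes were filtered with filterByExpr, scaled by TMM and tested with the quasi-likelihood test of edgeR 4.0.16 (limma 3.58.1, R 4.3.3), group alone in the design, with Benjamini-Hochberg adjustment over 13853 genes and a threshold of 0.05. SE came from the F statistic. The members and lists were chosen with earlier results of these data known. Lists are described by counts and medians, without set tests. Named were the 10 members, up to 5 called genes of each list with the largest change, 9 genes fixed by role, up to 5 called neighbours, and the 3 genes most like the member that changed most. A few more were chosen after their values were seen: Clec4a4, Clec4b2, Clec1b and Clec1a.

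Replicate numbers are shared by the groups. Deviations from group means correlated at 0.318, 0.162 and 0.29 for equal numbers and at -0.27 to -0.00812 for unequal ones. Wells of equal number were therefore treated as pairs in the ratios between wells and in the replicate block. All other tests, the permutation tests among them, left the numbers out. The pairing rests on the data, since no label explains the numbers. Replicates differed by more than sampling noise (chi-square per degree of freedom 3.85 to 15.1). On counts simulated at the levels of 13853 genes, 88% of 100 genes with a log2 change of 1 were recovered. So were 100% of 100 genes with a log2 change of 2, and 5.10% of the calls were false. The simulated wells had no replicate effect and far fewer changed genes than were called here. These shares thus do not give the recovery in the real wells.

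Alternatives were RLE scaling, total counts alone, DESeq2 1.42.0, no filter, the replicate block, leaving out each library, for sums and ratios CPM not divided by length and, added after seeing the data, leaving out both wells numbered 3.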

Additional observations from a re-analysis of the deposited data

How the results depend on the processing

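The log2 fold changes of the 10 lectin receptor genes kept their direction and their call in each of the 12 alternatives. Clec4n ranged from 2.15 to 2.34, Clec7a from -1.58 to -1.22 and Clec12a from -1.24 to -1.13. Clec4e ranged from -0.89 to -0.58 (adjusted p up to 0.0206) and Clec4a1 from 0.26 to 0.39 (adjusted p up to 0.0229). The replicate block called 17 of the other lectin-type genes (7 without it) and 4 of the transcription factors (2 without it). Of the named genes it changed the calls of Spi1, Cebpb and Clec1a. The other lectin-type genes numbered 11 called of 42 tested without a filter on low counts (26.2%, against 15.2% of all genes tested in that setting). With the filter 25.9% of 27 were called, against 27.9%. Without both wells numbered 3 it was 12 of 28 (42.9%, against 29.1%). Of the 8 phosphatases and brakes 3 were called without a filter (37.5%), and 3 to 4 with 1 library left out (37.5% to 50.0%), against 5. Of the neighbours in the chromosome 6 runs 1 to 2 were called with 1 library left out (16.7% to 33.3%), against 2. With 1 library left out, 19.0% to 25.4% of all tested genes were called. The causes of these shifts were not tested. The Syk value of -0.01 turned to 0.0450 without scaling beyond the total count, 0.00428 without a filter and 0.00881 without both wells numbered 3, and did not pass the test in any alternative. Of all calls 45.3% were higher with TMM scaling and 60.8% without scaling beyond the total count.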

Other observations

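The genes whose pattern over the 6 wells was most like that of Clec4n were Fkbp5, Acpp and Mtus1. Likeness was the root mean square difference between log2(CPM + 0.1) values, each centred on its mean over the wells, and it was 0.125 for Fkbp5, 0.138 for Acpp and 0.17 for Mtus1. Fkbp5, the gene of a co-chaperone of steroid receptors, held 12.0, 10.5 and 11.7 CPM in untreated wells 1 to 3 and 49.5, 47.1 and 48.8 CPM in the exposed wells. Mtus1, which encodes a microtubule-associated protein, went from 16.4 ± 1.07 to 64.5 ± 3.71 CPM (SD, n = 3 per group). Acpp, encoding an acid phosphatase, went from 7.43 ± 0.119 to 31.0 ± 2.53 CPM. The groups did not overlap for any of the 3 genes, which follows from their being picked for likeness to Clec4n. Of all tested genes 42.8% had no overlap.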
